A study of Mus musculus with 7 samples.

Results

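The lymphotoxin and tumour necrosis factor (TNF) ligands and receptors were followed as 8 genes in regenerating mouse liver. They were the receptor genes Ltbr, Tnfrsf1a, Tnfrsf1b and Tnfrsf14 and the ligand genes Lta, Ltb, Tnf and Tnfsf14. Every probe that the platform annotation gives to one of these symbols was taken, which made 16 of the 45281 probes on the array. Of these 16 probes, 7 lay above a background floor on at least 3 of the 7 arrays, and they belonged to Ltbr, Tnfrsf1a, Tnfrsf1b and Lta, the last only just at the floor. The probes of Tnfrsf14, Ltb, Tnf and Tnfsf14 stayed in the background.

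Each sample was whole liver of a C57BL/6 mouse, taken 12 h after partial hepatectomy (PHx), an operation that cuts away a share of the liver and makes the remnant grow back. The 4 KO samples carried the genotype LTBR KO, that is, loss of the lymphotoxin beta receptor, and the 3 WT samples were wild type. All 7 had undergone PHx, so differences present before surgery and those arising after it cannot be told apart. The labels used here give neither age nor sex, nor the construct behind the KO allele, and do not say outright that each sample was a separate mouse. RNA was labelled with biotin and read on single-colour Illumina bead arrays. The comparison asked how expression in the regenerating liver differs when this receptor is missing.

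Lymphotoxin alpha (Lta) and lymphotoxin beta (Ltb) form a membrane-bound trimer on lymphocytes that binds the lymphotoxin beta receptor, and lymphotoxin alpha alone and TNF bind both TNF receptors, encoded by Tnfrsf1a and Tnfrsf1b. LIGHT, the product of Tnfsf14, binds the lymphotoxin beta receptor and the herpesvirus entry mediator, HVEM, encoded by Tnfrsf14. Hepatocytes, endothelium and stromal and myeloid cells carry the receptors, whereas activated lymphocytes and macrophages are the usual source of the ligands. Both TNF receptor p55 (Tnfrsf1a) and the lymphotoxin beta receptor are known to activate NF-kB, and both have been linked to liver regeneration in mice.

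Ltb, Tnf and Lta lie next to each other in this order on chromosome 17, which also holds Tnfsf14. Tnfrsf1b and Tnfrsf14 lie on chromosome 4. Ltbr and Tnfrsf1a share chromosome 6, with 1 protein-coding gene, Scnn1a, between them in the RefSeq annotation of GRCm38.p6. The promoters of Ltbr and Tnfrsf1a, the pair with the largest differences among the tested members, are shown with that of Tnf, the best-known ligand, from RefSeq of GRCm38.p6. All 8 genes had an entry there. Each runs 5′ to 3′ from 250 bases before to 50 bases after the transcription start that the table uses. Capitals mark matches on either strand to GGGCGG, the GC box, or to TATAAA, the TATA box.
Ltbr, chr6:125313836-125314135, minus strand: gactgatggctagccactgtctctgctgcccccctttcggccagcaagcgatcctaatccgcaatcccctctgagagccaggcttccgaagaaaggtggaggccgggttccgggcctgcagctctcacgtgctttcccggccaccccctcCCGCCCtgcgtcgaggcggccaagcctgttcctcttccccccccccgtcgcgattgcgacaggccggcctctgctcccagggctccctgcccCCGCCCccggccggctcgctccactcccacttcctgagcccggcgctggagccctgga
Tnfrsf1a, chr6:125349473-125349772, plus strand: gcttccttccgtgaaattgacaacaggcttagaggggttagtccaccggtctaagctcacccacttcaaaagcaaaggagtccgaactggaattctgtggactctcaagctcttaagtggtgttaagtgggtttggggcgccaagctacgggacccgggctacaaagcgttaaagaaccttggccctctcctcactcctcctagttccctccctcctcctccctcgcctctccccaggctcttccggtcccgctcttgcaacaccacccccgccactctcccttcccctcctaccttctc
Tnf, chr17:35201958-35202257, minus strand: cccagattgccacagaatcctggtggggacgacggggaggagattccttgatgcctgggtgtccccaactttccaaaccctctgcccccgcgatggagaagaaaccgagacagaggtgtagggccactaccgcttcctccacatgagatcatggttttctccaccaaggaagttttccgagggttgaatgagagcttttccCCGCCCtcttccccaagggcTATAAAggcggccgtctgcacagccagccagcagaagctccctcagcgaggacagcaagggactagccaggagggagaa
A match to the TATA box was found in Tnf, where it begins 29 bases before the start. Lta also held a match, but it begins 167 bases before the start. Such a match was found in 13.6% of the 32851 promoters of this length. The GC box was found 2 times in Ltbr, 2 times in Tnfrsf1b and 1 time in Tnf, and in 35.7% of all promoters. No TATA box overlapped a GC box, and Tnfrsf1a, Tnfrsf14, Ltb and Tnfsf14 held no match to either. These matches describe letters only, and no binding was measured.

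The deposited values were intensities that the authors had normalized so that all arrays share the same distribution, from 72.6 to 30878 with a median of 91.1. The background peaked at an intensity of 87.4, and its upper bound, called the floor here, was 93.5. On each array 18614 probes lay above the floor. For tests the intensities were background-corrected and put on the log2 scale, on which the floor is 4.99. This left 13280 genes or unnamed probes to test. Over these, samples of a group correlated at 0.967 to 0.987 and samples of different groups at 0.96 to 0.977. On the first principal component, which held 31% of the variance, WT replicate 3 (-2.9) and KO replicate 3 (4.3) lay between the other WT samples (-28 and -26.9) and the other KO samples (14.4 to 22.7). Hepatocyte markers were all among the genes tested, 11 of 11, with log2 levels near 14 for Cyp2e1 and Ahsg in both groups (14.21 and 14.47 in WT, 13.97 and 14.23 in KO). Levels varied widely over this list, and Alb (7.13 in WT and 6.73 in KO) and Tat (5.65 and 5.61) read far lower.

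**Figure D1:**
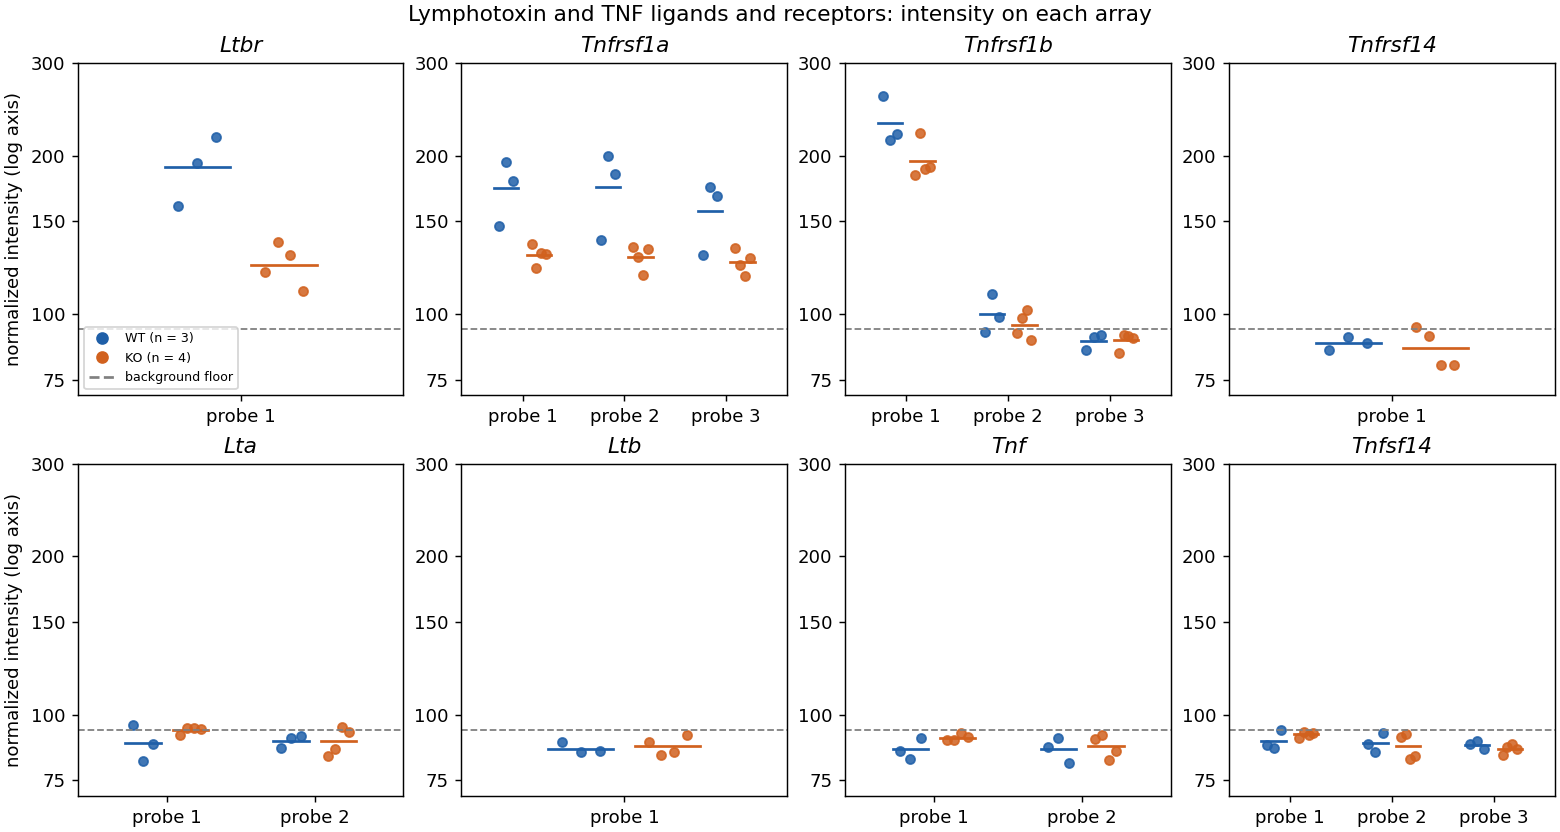
Normalized intensity (log axis) of all 16 member probes on each array, 3 WT (blue) and 4 KO (orange) samples, with group means as lines and the background floor of 93.5 as a dashed line. Probes of a gene are numbered from the brightest; Ltbr, the 3 Tnfrsf1a probes and Tnfrsf1b probe 1 lie above the floor on every array, while Tnfrsf14 and the ligand probes lie around or under it.

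Ltbr, the targeted gene, encodes the lymphotoxin beta receptor and was read by 1 probe. The WT samples read 160.5, 193.6 and 216.9 and the KO samples 120.0, 136.8, 129.3 and 110.5. Every KO sample lay below every WT sample, and every KO sample also stayed above the floor of 93.5. In this whole tissue, fewer cells of a type and less RNA per cell cannot be told apart. The position of this probe relative to the altered part of the gene is not given in the sources used here, and a probe outside that part would check nothing. On the log2 scale the level was 6.98 ± 0.33 (SD, n = 3) for WT against 5.94 ± 0.27 (SD, n = 4) for KO. The difference, KO minus WT, was -1.04 (SE 0.20, 95% confidence interval -1.49 to -0.59), 2.05-fold. In limma's moderated test it had a p of 3e-04 before and 0.088 after adjustment over all genes, so it missed the threshold of 0.05. Ltbr ranked 41 by p among the 13280 tested. Without background correction the difference was smaller, -0.61, as was that of Tnfrsf1a described next, at -0.41.

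Across all genes 9 passed that threshold, 0.0678% of those tested, and none of the 4 tested members was among them. Groups that do not overlap were common in these data. They were found with KO lower in 5.45% and with KO higher in 7.59% of all genes tested, and among the 4 tested members in Ltbr and Tnfrsf1a, both with KO lower. At an unadjusted p under 0.05 there were 14.7% of all genes, 6.48% lower and 8.2% higher in KO, and 2 of the 4 tested members, Ltbr and Tnfrsf1a, both lower. With 4 members tested, these shares say nothing about the family as a whole.

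Tnfrsf1a encodes TNF receptor p55, the receptor that carries a death domain and is found on most cells. It was read by 3 probes, all annotated to the same RefSeq transcript and so not independent of each other. At the brightest probe the WT samples read 146.8, 194.7 and 178.8 and the KO samples 135.9, 122.4, 130.7 and 129.9. WT replicate 1 lay much nearer to the KO samples than WT replicates 2 and 3 did, though still above them. The second probe read 138.2, 199.5 and 184.8 in WT against 134.3, 128.3, 118.5 and 132.7 in KO. The third read 129.5, 174.7 and 167.4 in WT against 133.2, 123.7, 118.0 and 127.9 in KO. There WT replicate 1 fell inside the KO range, and the groups overlapped. The probes moved together over the 7 arrays, with Pearson's r of 0.95, 0.95 and 0.99 for the 3 pairs.

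The log2 level of Tnfrsf1a at its brightest probe was 6.78 ± 0.33 (SD, n = 3) for WT against 6.08 ± 0.12 (SD, n = 4) for KO. The difference of -0.70 (SE 0.18, 95% confidence interval -1.09 to -0.30), 1.62-fold, did not pass limma's test (adjusted p = 0.13). The other probes differed by -0.72 (SE 0.21) and -0.55 (SE 0.20), with adjusted p of 0.16 and 0.23 over the 18907 probes above the floor. Of those probes 6.49% had a KO group entirely below WT, as had 2 of the 3 Tnfrsf1a probes. Without WT replicate 1 the difference at the brightest probe was -0.88, and without WT replicate 2 it was -0.56. Scnn1a, an epithelial sodium channel gene between Ltbr and Tnfrsf1a on chromosome 6, differed by -0.71 (SE 0.21, adjusted p = 0.17 by limma), about as much as Tnfrsf1a.

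**Figure D2:**
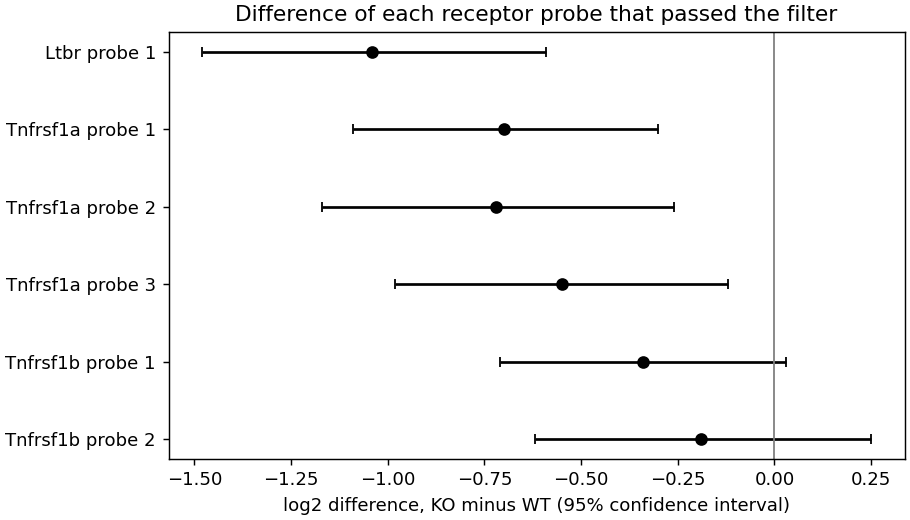
Log2 difference, KO minus WT, of each of the 6 receptor probes that passed the filter, with 95% confidence intervals from limma. The intervals of Ltbr and of the 3 Tnfrsf1a probes lie below 0 before any adjustment over genes, and those of the 2 Tnfrsf1b probes include 0.

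Tnfrsf1b encodes TNF receptor p75, which lacks a death domain and is most abundant on leukocytes and endothelium. Its brightest probe read 259.3, 213.9 and 219.9 in WT against 183.6, 220.9, 188.3 and 190.1 in KO. KO replicate 2 lay inside the WT range, and the other KO samples lay below it. The log2 level was 7.39 ± 0.20 (SD, n = 3) for WT against 7.06 ± 0.17 (SD, n = 4) for KO, a difference of -0.34 (SE 0.17, 95% confidence interval -0.71 to 0.03; adjusted p = 0.39 by limma). Without WT replicate 1, the highest sample, it was -0.22. The interval thus reaches from a decrease close in size to that of Tnfrsf1a to no difference.

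The other Tnfrsf1b probes were dim. The second read 92.4, 109.1 and 98.5 in WT against 91.8, 98.4, 101.6 and 89.1 in KO, above the floor on 4 arrays, and differed by -0.19 (SE 0.20, adjusted p = 0.73 by limma over probes). It did not follow the brightest probe over the 7 arrays (Pearson's r 0.11). The third lay between 84.4 and 91.1 on all arrays and never passed the floor. The Tnfrsf1b values therefore rest on 1 probe.

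Whether the receptors differed from each other in their response was tested on the per-sample log2 difference between their brightest probes, by an exact two-sided permutation test over the 7 samples, for which the smallest possible p is 0.057. The KO minus WT difference of Ltbr minus that of Tnfrsf1a was -0.34 (exact p = 0.23), and minus that of Tnfrsf1b it was -0.70 (exact p = 0.11). For Tnfrsf1a minus Tnfrsf1b it was -0.36 (exact p = 0.34). Adjusted over the 3 pairs, the p-values were 0.34, 0.33 and 0.34. With 4 KO and 3 WT samples and the smaller tail doubled, this test could not have reached the threshold, so it decides nothing here.

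Tnfrsf14, the gene of HVEM, which binds LIGHT and the inhibitory receptor BTLA, had 1 probe. It read 85.3, 90.2 and 88.2 in WT against 94.5, 90.7, 79.8 and 79.8 in KO. Only KO replicate 1 was above the floor, and no level or fold change is given. Of the other HVEM partners, Btla was measured (log2 difference 0.03, SE 0.16) and Cd160 was not above the floor on enough arrays.

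Lta, the gene of lymphotoxin alpha, was the ligand gene with a probe that passed the filter, and that probe only just reached the floor. It read 95.6, 81.5 and 87.9 in WT against 91.3, 94.4, 94.3 and 93.7 in KO, above the floor in 1 WT and 3 KO samples. The KO samples lay close together inside the wider WT range. It entered the tested set through KO samples at the floor and its mean lay under the floor in both groups, so no level or fold change is given and nothing is read from its test. Its other probe read 86.4, 90.1 and 90.9 in WT against 83.3, 86.0, 94.5 and 92.5 in KO, above the floor in KO replicate 3 alone.

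Ltb, the membrane anchor of the lymphotoxin trimer, read 88.7, 84.7 and 85.1 in WT against 88.6, 83.7, 84.7 and 91.4 in KO at its 1 probe. No array was above the floor, and the WT values lay within the wider KO range.

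Tnf, the cytokine that starts much of the signalling through both TNF receptors, had 2 probes. The first read 85.4, 82.4 and 90.2 in WT against 89.3, 89.4, 92.2 and 90.7 in KO. The second read 86.6, 90.3 and 80.9 in WT against 89.8, 91.4, 81.9 and 85.4 in KO. Both stayed under the floor on all 7 arrays, with overlapping groups, so at 12 h after PHx no Tnf signal could be told from background in either genotype with these probes.

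Tnfsf14, the gene of LIGHT, had 3 probes, none above the floor on any array. The brightest read 87.5, 86.5 and 93.4 in WT against 90.4, 92.5, 91.4 and 92.4 in KO, the second lay between 82.4 and 92.1, and the third between 83.9 and 88.9. WT replicate 3 was the highest of the 7 samples at the brightest probe. A signal under the floor is not evidence that a transcript is missing.

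**Figure D3:**
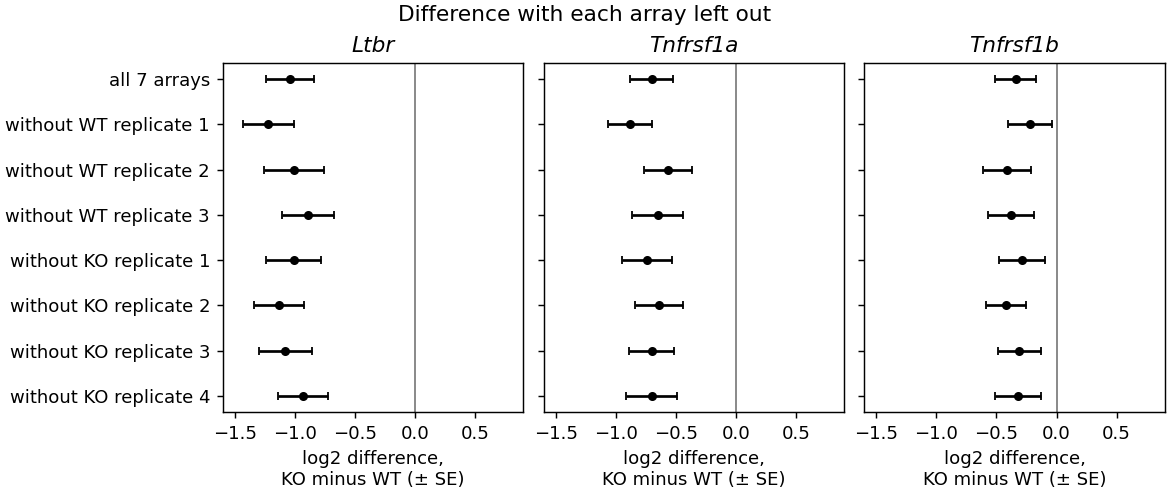
Log2 difference, KO minus WT (± SE), of the 3 measured receptor genes with all 7 arrays and with each array left out in turn. Ltbr stays between -1.22 and -0.89 and Tnfrsf1a between -0.88 and -0.56, while Tnfrsf1b ranges from -0.42 to -0.22.

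None of the 3 receptor genes changed direction with any array left out. Ltbr ranged from -1.22 without WT replicate 1 to -0.89 without WT replicate 3, with adjusted p between 0.074 and 0.38 by limma. Tnfrsf1a kept adjusted p between 0.12 and 0.47 and Tnfrsf1b between 0.32 and 0.66. When limma weighted the arrays by their estimated variability, Ltbr (-1.07, adjusted p = 0.014) and Tnfrsf1a (-0.76, adjusted p = 0.025) both passed. That setting called 938 genes in place of 9 and gave the lowest weights to KO replicate 3 (0.47) and WT replicate 3 (0.57), the samples that lay between the groups on the first component. With both of these left out Ltbr passed (-0.94, adjusted p = 0.044) among 569 genes, and Tnfrsf1a did not (-0.66, adjusted p = 0.11). Leaving out the samples nearest to the other group in these same data favours a larger number of calls, so this is no separate support for Ltbr.

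The genes whose level over the 7 arrays was most like that of a measured receptor gene were ranked by Pearson's r among 10440 named genes. For Ltbr they were Ctnnbl1 (0.974), Vgll4 (0.971) and Eif3b (0.968), which differed by -0.63, -0.70 and -0.60 between KO and WT. For Tnfrsf1a they were Btd (0.995), Tmem115 (0.982) and Uhrf1bp1l (0.981), with differences of -0.95, -0.71 and -0.33. Zfp955a (0.958), Kcne4 (0.951) and Lmcd1 (0.949) were nearest to Tnfrsf1b. None of these 9 genes passed the threshold. Ltbr and Tnfrsf1a had an r of 0.86 with each other, and neither was among the nearest genes named for the other. Over 7 arrays that share the split between KO and WT, such values describe the arrays and carry no test.

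The adapters and NF-kB machinery below these receptors made a list of 38 genes, of which 28 were tested. None passed over all genes, in either direction. At an unadjusted p under 0.05 there were 4 higher and 1 lower in KO, 17.9% of the list against 14.7% of all genes tested. The median log2 difference of the list was 0.19, against 0.03 over all genes, with 18 members above 0 and 10 below. Over all 13280 genes, 7203 were above 0 and 6077 below.

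The 4 of smallest p all had higher KO means. Tab1, whose product binds and activates the kinase TAK1, had log2 levels of 6.11, 6.00 and 6.41 in WT against 7.10, 6.69, 7.29 and 6.82 in KO (difference 0.80, SE 0.19, adjusted p = 0.11 by limma). Its groups did not overlap, and its 1 other probe differed by 0.31. Tnip1, which binds A20, an inhibitor of NF-kB, differed by 0.79 (SE 0.21, adjusted p = 0.14), or 0.57 without WT replicate 1, and its 3 other probes by 0.31 to 0.54. Cyld, a deubiquitinase that restrains NF-kB signalling, differed by 0.55 (SE 0.17, adjusted p = 0.18), but by 0.10 at its other probe. Map3k14, the kinase NIK that lymphotoxin beta receptor signalling stabilises, differed by 0.71 (SE 0.25, adjusted p = 0.22), or 0.39 without WT replicate 1, from a WT mean at the floor (4.98).

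Other parts of the machinery had larger p, though not always smaller differences. Map3k5, the 1 gene lower in KO at an unadjusted p under 0.05 by limma, differed by -0.43 (SE 0.19), and Rbck1 by -0.54 (SE 0.26). Tnfaip3, which encodes A20, differed by 0.54 (SE 0.27), Rela by 0.33 (SE 0.20), Nfkb2, whose product the lymphotoxin beta receptor pathway processes, by -0.01 (SE 0.16) and the NF-kB inhibitor gene Nfkbia by -0.41 (SE 0.20). Among the death domain adapters of TNF receptor p55, Tradd differed by -0.09 (SE 0.16) and Fadd by 0.26 (SE 0.22), with Casp8 at -0.19 (SE 0.20). Nfkb2 (means of 5.21 in WT and 5.2 in KO) and Tradd (5.05 and 4.96) lay near the log2 floor of 4.99. Little can be read from the small differences of Nfkb2 and Tradd. Tab2 and Tab3, whose products link TAK1 to the ubiquitin chains of the receptor complex, differed by 0.00 (SE 0.19) and 0.26 (SE 0.18). Traf1, Traf2, Traf5, Birc3 and Relb were on the array but not above the floor on enough arrays, and Traf3, Chuk, Ripk1, Nfkb1 and Map2k7 were not analysed here.

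In the wider TNF family, too, more receptor than ligand genes passed the filter. Of 14 other ligand genes, 13 were on the array and 1 passed the filter, Tnfsf13b, the gene of the B cell survival factor BAFF (-0.01, SE 0.20). Its means of 5.01 in WT and 4.99 in KO lay at the floor of 4.99, so nothing is read from its difference. Of 24 other receptor genes, all on the array, 15 were tested. Among them, Tnfrsf9 (means of 4.91 in WT and 4.83 in KO), Tnfrsf13c (4.84 and 4.85) and Tnfrsf17 (4.71 and 4.98) lay under the floor. Cd40 (5.01 and 4.95) lay at it, as did the WT means of Tnfrsf4 (4.97, with 5.29 in KO) and Eda2r (4.98, with 5.12 in KO). The share and median given next include such genes. None of the 15 passed over all genes, with 1 higher and 1 lower at an unadjusted p under 0.05 (13.3%, against 14.7% of all genes) and a median of -0.06. Tnfrsf11b, which encodes the decoy receptor osteoprotegerin, had log2 levels of 6.03, 5.82 and 5.77 in WT against 6.70, 6.42, 6.90 and 6.88 in KO. All KO samples were above all WT samples, and the difference was 0.85 (SE 0.17, adjusted p = 0.088 by limma). Fas, the death receptor gene, differed by -0.50 (SE 0.21, adjusted p = 0.30), with its 3 other probes between -0.71 and 0.09. Tnfrsf12a, the receptor of TWEAK, which liver injury induces, differed by 0.48 (SE 0.38).

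Genes that shed TNF and its receptors from the cell surface, or control the stability of TNF mRNA, made a list of 14, of which 12 were tested. None passed, 0 had an unadjusted p under 0.05 by limma, and the median was 0.07. Adam17, the sheddase of TNF and its receptors, differed by 0.37 (SE 0.20, or 0.14 without WT replicate 3) and by -0.03 at its other probe. Zfp36, which encodes the TNF mRNA decay factor tristetraprolin, differed by 0.12 (SE 0.26). Mapkapk2, a kinase that promotes TNF production, differed by -0.48 (SE 0.23, or -0.28 without WT replicate 3).

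Lymphoid tissue genes that depend on the lymphotoxin beta receptor in lymph nodes and spleen made a list of 12, of which 6 were tested and none passed. At an unadjusted p under 0.05 there were 2 higher and 0 lower in KO, 33.3% of the 6 against 14.7% of all genes, and the list median was 0.20. Vcam1, an adhesion molecule gene and the member of smallest p, had log2 levels of 8.86, 8.50 and 8.27 in WT against 9.08, 9.18, 9.04 and 9.35 in KO. Its groups did not overlap, and it differed by 0.62 (SE 0.18, adjusted p = 0.16 by limma) at its brightest probe and by -0.25 to 0.40 at its 2 other probes. Cxcl13, a B cell chemokine, had log2 levels of 5.47, 5.36 and 5.36 in WT against 5.89, 5.62, 6.52 and 8.55 in KO. The KO samples all lay above the WT samples, but KO replicate 4 stood far above the rest. The difference of 1.25 (SE 0.53, adjusted p = 0.31 by limma) was 0.62 without KO replicate 4. Cxcl12, a stromal chemokine, differed by 0.27 (SE 0.26, or 0.07 without KO replicate 4), but by -0.19 to -0.12 at its 2 other probes. The adhesion molecule gene Icam1 differed by -0.08 (SE 0.22). Ccl21a, a T cell chemokine, differed by -0.28 (SE 0.18) and Ccl19 by 0.13 (SE 0.17), both near the floor.

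Of the markers of lymphocytes, which make the ligands, most were near or under the floor, with Cd8b1 and Prf1 as exceptions. Of 14 T and NK cell markers 5 were tested, and Cd4, Cd8a, Cd3g, Cd2, Nkg7, Ncr1 and Klrb1c were not above the floor on enough arrays. Cd3d had means of 5.03 in WT and 4.88 in KO and Cd3e of 4.89 and 4.95. The summed signal of the tested T and NK markers was 1060 to 1120 in WT and 723 to 1040 in KO, and most of it came from Cd8b1, a CD8 chain gene (log2 9.34 in WT and 9.36 in KO), and Prf1, the perforin gene (8.60 in WT and 7.76 in KO). Of 7 B cell markers 2 were tested, with sums of 24.2 to 40.7 in WT and 28.8 to 46.8 in KO, and Ms4a1, Blk and Pax5 were not above the floor on enough arrays.

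Kupffer cell and macrophage markers, in contrast, were well measured, 10 of 12 tested, and 9 of the 10 had higher KO means, as had 7203 of all 13280 genes (median 0.39, against 0.03 over all genes). None passed over all genes, and 3 had an unadjusted p under 0.05, all higher in KO (30%, against 14.7% of all genes). Their summed signal was 1670 to 2290 in WT and 2360 to 3990 in KO, with the highest value in KO replicate 4. Marco, a scavenger receptor gene, differed by 1.71 (SE 0.35, adjusted p = 0.088 by limma) and Vsig4, a complement receptor gene, by 0.75 (SE 0.24, or 0.51 without KO replicate 4). Tnf and Tnfsf14, which macrophages can make, were under the floor in these same KO samples. Sums of sinusoidal endothelial markers overlapped between the groups (2400 to 3470 in WT, 2510 to 3880 in KO), as did those of stellate cells and fibroblasts (2750 to 3470 and 3070 to 4530), cholangiocytes (281 to 443 and 312 to 812) and monocytes and neutrophils (337 to 1460 and 480 to 1130). Hepatocyte marker sums were 138000 to 145000 in WT and 128000 to 136000 in KO. Of the 11 hepatocyte markers 10 were below 0 (median -0.13), as were 6077 of all 13280 genes. None of the 11 had an unadjusted p under 0.05 by limma. The part of these cell type levels in the values of Ltbr, Tnfrsf1a and Tnfrsf1b was not tested.

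**Figure D4:**
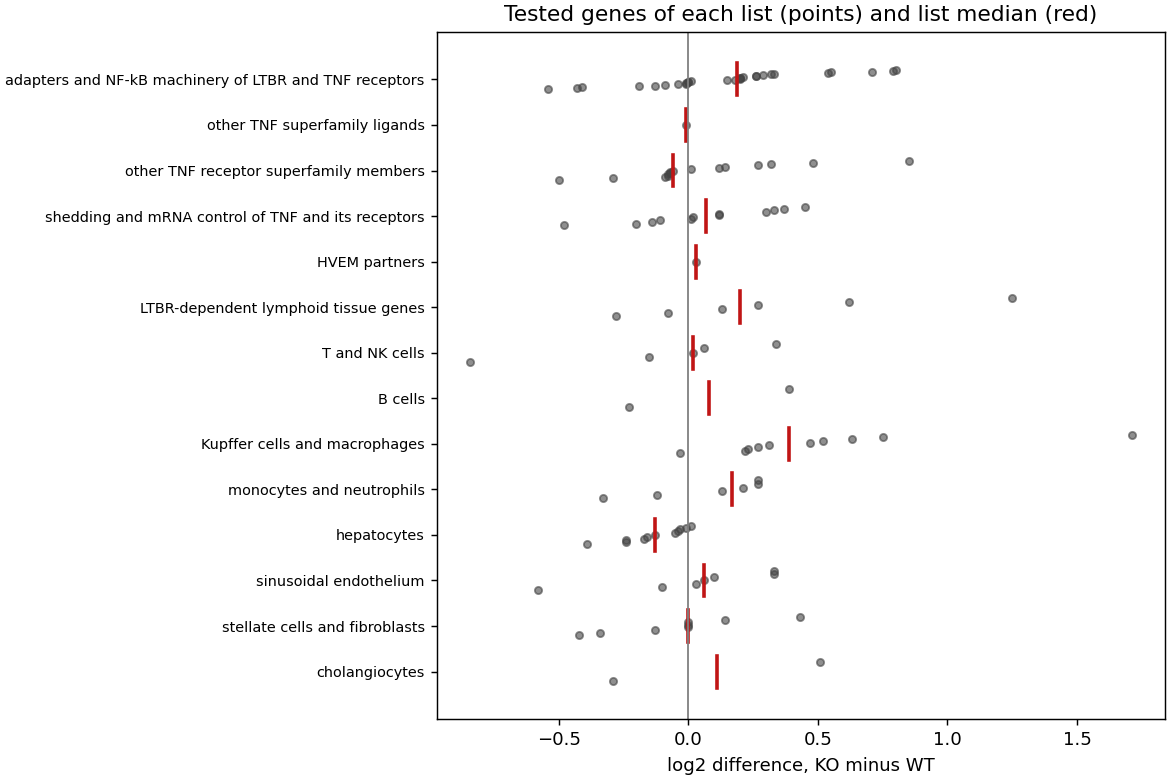
Log2 difference, KO minus WT, of the tested genes of each pathway and cell type list (points), with the list median in red. The median is 0.19 for the adapters and NF-kB machinery, -0.06 for other TNF receptor family members and 0.39 for Kupffer cells and macrophages, against 0.03 over all genes tested.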

How the data were processed

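Whole-liver RNA of 4 KO and 3 WT samples was grouped by the sample titles. The deposited table holds linear intensities, 1 per probe and array. The authors had normalized them between arrays, as the coinciding quantiles of the 7 columns show. Partek is named, without a version, per the submitters' processing notes. A scanner table with 14 columns, 7 of signal and 7 of detection p, was not used, because no label ties them to samples.

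The floor was the 0.95 quantile of a normal curve with its centre at the background peak and its spread taken from the intensities below the peak. The deposited intensities went through limma's normexp background correction (offset 16, saddle-point estimation) before log2 was taken, using R 4.3.3 and limma 3.58.1. A probe was kept if at least 3 arrays exceeded the floor, which left 18907 of 45281, and the brightest probe stood for a gene. Of all probes, 34885 had 1 symbol, 18 several and 10378 none. RefSeq of GRCm38.p6 matched 34807 by Entrez identifier and changed 0 symbols. The 2 genotypes were compared by limma's lmFit and eBayes without covariates, two-sided, with p-values adjusted by Benjamini-Hochberg over 13280 genes or probes without a name. The median SE was 0.18, and the number of arrays limits the precision. The p-values reflect spread among these samples, part of which may be technical.

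The members and the 14 lists were chosen with earlier results of these data known. All members were named, with the 3 genes most like each measured receptor gene and, from each list, the genes passing or otherwise up to 4 of smallest p; further list members were named after their values were seen, and not all allowed genes are printed. The lists covered receptor adapters and NF-kB machinery, other ligands, other receptors, shedding and mRNA control, HVEM partners, lymphoid tissue genes and 8 cell types. On simulated data for the comparison of KO with WT over 13280 genes, the procedure called 5 of 67 genes given a 1.5-fold change, 37 of 67 given 2-fold and 65 of 66 given 4-fold, and 8 genes that had been left alone. Samples with the same replicate number did not deviate together (correlations of -0.19, -0.04 and -0.30), so the numbers were not used as pairs. Alternatives changed the background correction, normalization, filter, probe choice, prior, array weights and replicate block, and left out samples.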

Additional observations from a re-analysis of the deposited data

Results flagged for a closer look

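At the dimmest Tnfrsf1b probe, KO replicate 1 (log2 4.50) lay apart from the other 3 KO samples by more of the group's range than Dixon's 95% critical value for 4 samples (a gap of 0.88 of the range). All 7 arrays were under the floor at this probe. Dixon's test was applied to the KO samples of all 16 member probes, and chance flags about 1 in 20 groups.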

How the results depend on the processing

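The differences of Ltbr, Tnfrsf1a and Tnfrsf1b kept their direction under the 19 alternatives run for each. Median centring, the filter and floor changes, single probes and the trended robust prior left these estimates unchanged, since the same probe values were used. Only the other alternatives could have altered their direction. Lta lay at the floor and is not counted. Ltbr passed the threshold with array weights (-1.07) and with KO replicate 3 and WT replicate 3 left out together (-0.94), and Tnfrsf1a with array weights (-0.76), so that 2 and 1 members were called in place of 0. The samples left out together were those nearest to the other group on the first component of these same data, so that setting is no separate support. Without background correction the differences were smaller, -0.61 for Ltbr and -0.41 for Tnfrsf1a, since uncorrected background compresses ratios. With the replicate block Ltbr differed by -0.93 (adjusted p = 0.30) and Tnfrsf1a by -0.70 (adjusted p = 0.37). The number of genes called over all genes, 9, was 4 without background correction, 19 without a filter, 1 with probes above the floor on all arrays, 3 with the mean of the kept probes, 2 with the trended robust prior, 938 with array weights, 3 with the replicate block, 2 to 5 with single arrays left out and 569 with KO replicate 3 and WT replicate 3 left out together; the cause was not tested. A lower floor of 91, chosen after seeing the data, added Tnfsf14 (0.13, adjusted p = 0.79) to the members tested. Signals near the floor limit Lta, Ltb, Tnf, Tnfsf14 and Tnfrsf14.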
